A study of Homo sapiens with 8 samples.

Results

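The genes described here are 49 genes of the G1/S transition and of DNA replication, taken as a list of symbols, which was drawn up with earlier results of these data known. Of these, 48 were measured, by 100 probe sets, out of 19775 genes that the arrays name by a single symbol, and 1 listed gene was not analysed here. The RNA came from SKBR3, a human HER2-amplified breast cancer line, in 8 conditions with a single array for each, on an Affymetrix design with 54675 probe sets. After 4 h in charcoal-stripped serum (10%), cultures received their treatment and were taken 3 h later. Cells without hormone were left untreated, or given 0.1% ethanol, the vehicle control, or 1e-06 M BSA, the carrier protein. The ethanol content of the estradiol culture is not known here. Hormone was given at 1e-06 M, free as estradiol or as E2-BSA, its albumin conjugate. The antagonist G15, which blocks the membrane estrogen receptor GPER, was given at 1e-05 M alone or on top of E2-BSA, and the antagonist that the labels call ICI was given at 1e-05 M with E2-BSA. Since each condition is 1 culture, the differences carry no replicate error and were not tested, and the number of arrays limits the precision.

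Cells enter S phase when cyclin D and then cyclin E kinases inactivate the retinoblastoma proteins and release E2F transcription factors, which drive the genes of the replication machinery. Origins are licensed in G1 by the origin recognition complex, CDC6 and CDT1, which load the MCM helicase. At the start of S phase CDC45 and the GINS complex activate that helicase, polymerases and the PCNA clamp copy the strands, and histone chaperones rebuild chromatin behind the fork. The RNA of most of these genes is highest around the G1/S boundary, so in a culture of mixed phases a lower level can come from fewer cells at that phase or from less RNA in each cell, and the arrays cannot tell these apart.

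Promoters of these genes carry the letters to which E2F binds more often than other promoters do in the sequence tables used. Windows from 250 bases before to 50 after the start, from RefSeq on GRCh38.p14, were found for 40 of the 48 genes. The letters searched were TTTCCCGC, TTTCGCGC, TTTGCCGC and TTTGGCGC on both strands. They occurred in 24 of 40 genes, or 60%, against 5.36% of the 15384 genes on the arrays with a window. Of 33 matches, 27 were centred within 100 bases of the start, and 7 genes held more than 1, some of them overlapping on the opposite strand. The placement of matches in other promoters was not counted, so the 27 have no background beside them. This is a description of the letters, and a match is not a measured binding site. The next lines show the 100 bases before the start of 6 of these genes, chosen after the search as examples of the placement among genes with a single window, with the matches in capitals. MCM6 is part of the replicative helicase, E2F1 is itself an E2F factor, DTL directs CDT1 to degradation, TYMS makes thymidylate, CDT1 loads the helicase and GINS2 is part of its activator.
MCM6, chr2:135876444-135876543, minus strand: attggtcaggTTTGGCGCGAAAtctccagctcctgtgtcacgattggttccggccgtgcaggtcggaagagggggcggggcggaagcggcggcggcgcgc
E2F1, chr20:33686386-33686485, minus strand: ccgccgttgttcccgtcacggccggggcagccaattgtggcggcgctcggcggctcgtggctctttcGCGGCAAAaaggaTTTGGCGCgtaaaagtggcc
DTL, chr1:212035648-212035747, plus strand: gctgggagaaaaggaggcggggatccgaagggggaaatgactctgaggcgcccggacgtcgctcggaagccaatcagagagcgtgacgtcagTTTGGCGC
TYMS, chr18:657553-657652, plus strand: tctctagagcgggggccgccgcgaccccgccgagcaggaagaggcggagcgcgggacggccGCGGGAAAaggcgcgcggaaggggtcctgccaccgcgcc
CDT1, chr16:88803689-88803788, plus strand: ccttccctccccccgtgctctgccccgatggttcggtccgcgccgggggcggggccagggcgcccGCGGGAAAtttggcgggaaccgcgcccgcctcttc
GINS2, chr16:85688955-85689054, minus strand: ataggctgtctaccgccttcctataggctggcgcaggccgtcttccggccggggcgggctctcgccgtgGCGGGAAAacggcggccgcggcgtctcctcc

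**Figure D1:**
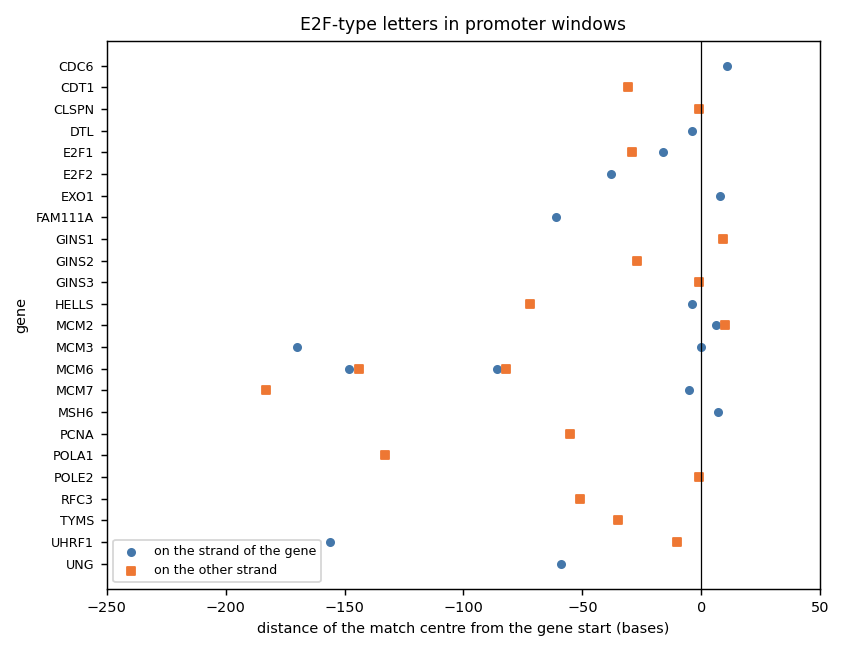
Distance in bases of the centre of each match from the gene start (horizontal axis, 0 is the start) for the 24 genes with a match (vertical axis). Circles are matches on the strand of the gene and squares on the other strand, and 27 of the 33 lie within 100 bases of the start. The placement in other promoters was not counted.

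The deposited values are centred near 0 for each probe set and carry no absolute level, so genes cannot be ranked by expression, and whether a gene is expressed at all cannot be read from them. They were read as log2 values. Neither the labels nor the file name the base, and if it were e the folds would be larger. A gene is the mean of its probe sets, a value is that mean on 1 array, and a difference is 1 array minus another. For the same reason the presence of the epithelial and HER2 markers of SKBR3 could not be checked. The 6 epithelial markers varied over the 8 arrays by 0.12 (KRT18) to 0.35 (EPCAM). Of the HER2 amplicon, STARD3 varied by 0.26, ERBB2 by 0.36 and GRB7 by 0.59.

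Over the 8 arrays the G1/S genes moved little. The distance between a gene's highest and lowest array had a median of 0.29 over the 48 genes, from 0.13 for the helicase subunit MCM7 to 1.30 for FAM111B, beside 0.34 over all genes. The untreated and E2-BSA arrays were the high ones, with medians of 0.041 and 0.061 over the genes and 37 and 38 of 48 values above 0. The median over all probe sets was 0 on every array, and the share of all genes above 0 was not counted. The ICI combination (-0.073), BSA (-0.066) and ethanol (-0.046) arrays were the low ones. G15 (-0.02), E2-BSA plus G15 (-0.016) and estradiol (-0.012) lay between them.

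In where single genes had their extremes, untreated and E2-BSA were again the high arrays, but the low arrays came in another order. In 18 of the 48 genes, or 37.5%, the untreated and E2-BSA arrays were the 2 highest, against 4.66% of all genes. The highest value fell on the E2-BSA array in 16 genes (33.3%, against 14.2% of all genes) and on the untreated array in 13 (27.1% against 8.55%). The lowest value fell on the ethanol array in 17 genes (35.4% against 26.4%), on the ICI combination in 12 (25% against 12.2%) and on BSA in 9 (18.8% against 11.1%). It fell on E2-BSA in 0 genes, against 13.6% of all genes. The ethanol array also held the largest share of lowest values over all genes.

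**Figure D2:**
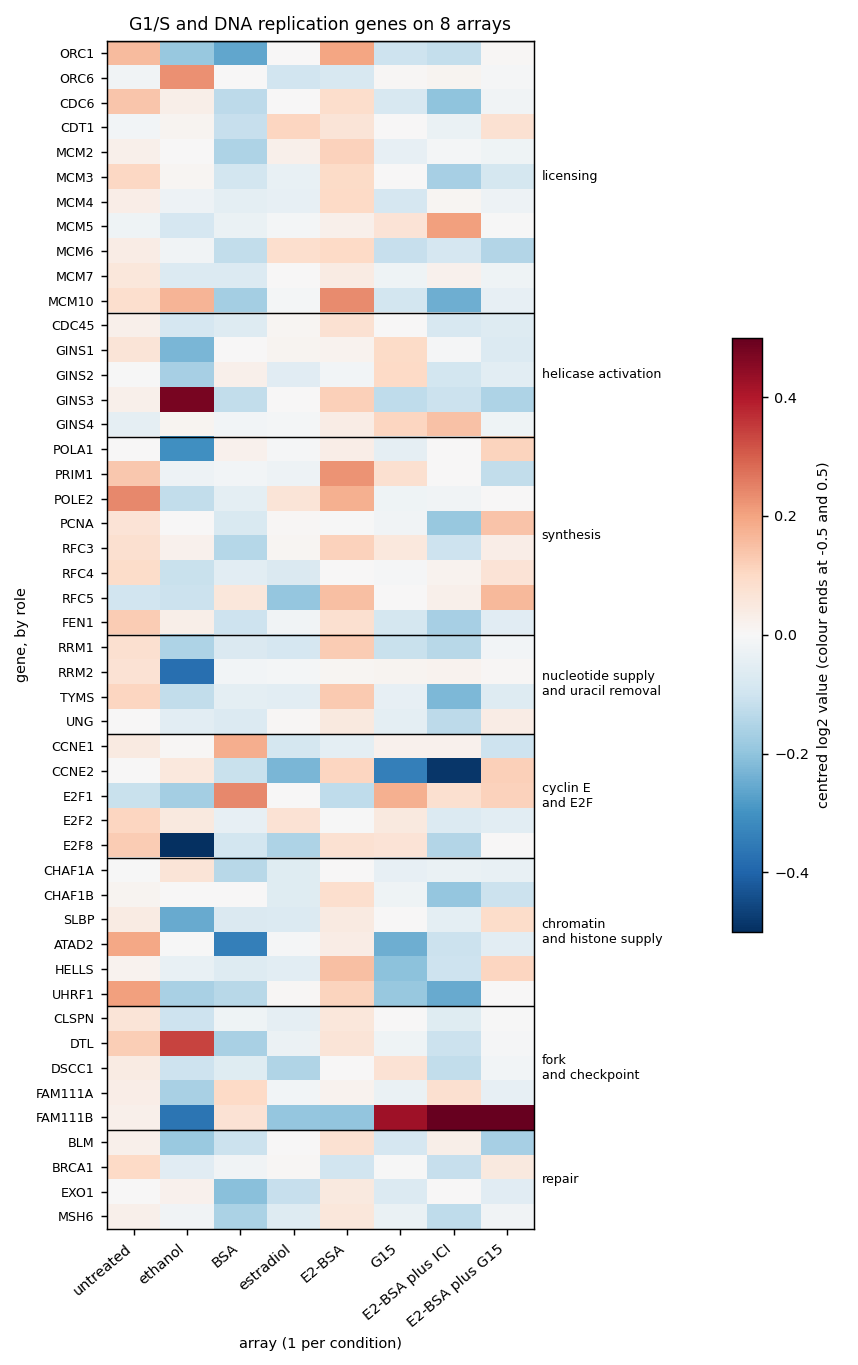
Centred log2 value (colour) of each of the 48 genes (rows, grouped by role) on each of the 8 arrays (columns, 1 array per condition). The untreated and E2-BSA columns are mostly red, the BSA column is mostly blue, and FAM111B, E2F8, GINS3 and CCNE2 hold the strongest colours.

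The ethanol array addressed how these genes stood with the vehicle control. E2F8, an atypical E2F that represses E2F targets, stood apart: it was -0.79 with ethanol, 0.13 untreated, -0.093 with BSA, -0.15 with estradiol, 0.075 with E2-BSA, 0.068 with G15, -0.15 with E2-BSA plus ICI and 0.00 with E2-BSA plus G15. Ethanol is thus the only array far from the rest, and its difference from untreated was -0.92 (1.89-fold), on a single probe set. RRM2, the small subunit of ribonucleotide reductase, was likewise low on ethanol alone, at -0.38, while its other 7 values lay between -0.012 and 0.071. Both RRM2 probe sets were lower than untreated, with differences of -0.35 and -0.55.

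In the opposite direction, GINS3, of the GINS complex, was high on ethanol at 0.47, with the other arrays between -0.16 and 0.12, and its difference of 0.45 came from both probe sets (0.48 and 0.41). The next highest differences were those of ORC6, of the origin recognition complex, at 0.25, and DTL at 0.21. For DTL the probe sets disagreed, at -0.02 and 0.45. Members of the GINS complex went different ways on this array: GINS1 differed from untreated by -0.29, GINS2 by -0.17 and GINS4 by 0.06.

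As a group the genes were slightly lower with ethanol than untreated. The median difference was -0.10 (1.07-fold) beside -0.028 over all genes, and 39 of 48 were below 0 where 56% of all genes were. A difference of 0.32 in log2, a ratio of 5 to 4 and the size counted from here on, was reached by 6 lower genes, or 12.5%, against 7.33% of all genes, and by 1 higher gene against 8.36%. After E2F8 and RRM2 the lower genes were FAM111B (-0.39), a protease of replicating cells, the hemimethylated DNA reader UHRF1 (-0.37), POLE2 of polymerase epsilon (-0.36) and ORC1 (-0.35). All 4 nucleotide supply genes and all 8 strand synthesis genes were below 0, with medians of -0.23 and -0.13.

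Estradiol was set against both ethanol and untreated cells, and these differences share the arrays of the comparison just given. Against ethanol the largest differences mirrored the extremes of the ethanol array. Higher were E2F8 at 0.63, RRM2 at 0.37 and POLA1, the catalytic subunit of polymerase alpha, at 0.30. Lower were GINS3 (-0.47), DTL (-0.36) and ORC6 (-0.32). The median was 0.032 beside 0.022 over all genes, with 21 of 48 below 0 against 43.1%. At 0.32 2 genes were higher (4.17% against 6.41%) and 3 lower (6.25% against 8%). These shares are near those of all genes. With the arrays scaled to a common interquartile range the E2F8 difference was 0.24 and the median over the genes -0.014.

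Against untreated cells the estradiol array showed small differences of one sign. Of the 48 genes 41 were below 0, where 49.4% of all genes were, with a median of -0.087 (1.06-fold) beside 0.00. With the arrays scaled to a common interquartile range that median was -0.14. Endothelial markers were above 0 in 4 of 4 (0.095), immune markers below in 4 of 4 (-0.06) and stromal markers below in 4 of 5 (-0.036), and their part was not tested. None reached 0.32 in either direction, where 1.4% of all genes were that much higher and 1.46% lower. E2F8 (-0.28), the cyclin E gene CCNE2 (-0.23) and FAM111B (-0.22) were the lowest, and CDT1 (0.12), E2F1 (0.11) and MCM6 (0.047) the highest. All 8 synthesis genes, all 6 chromatin genes and all 5 fork and checkpoint genes were below 0. Against BSA, also an array without hormone, the sign was the other: the median was 0.023 and 17 of 48 genes were below 0, beside 48.7% of all genes.

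**Figure D3:**
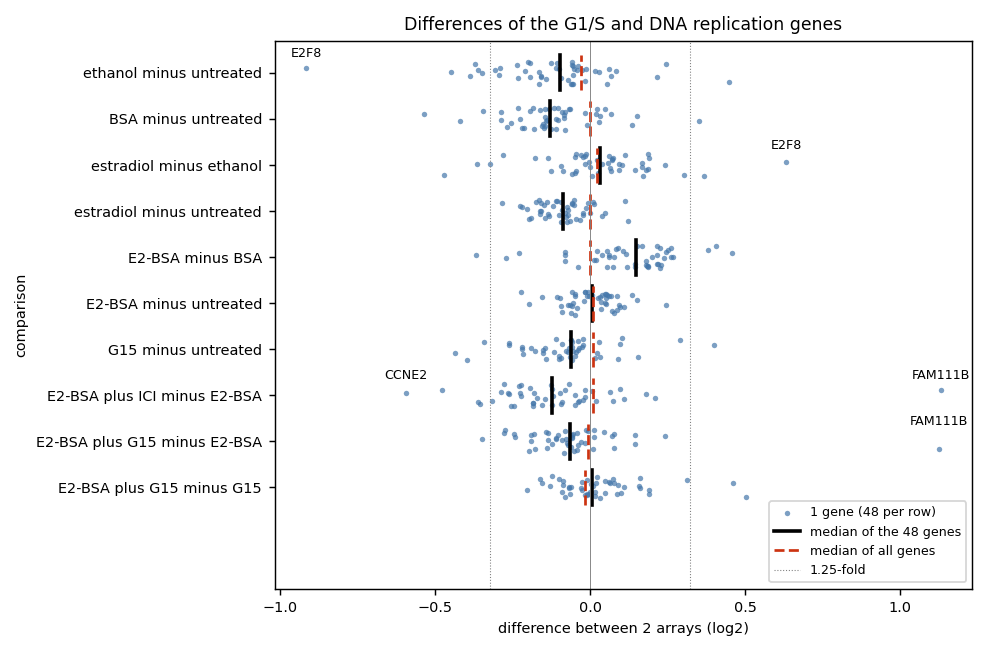
Difference between 2 arrays in log2 units (horizontal axis) for each of the 48 genes (points) in 10 comparisons (vertical axis), with the median of the 48 genes (solid bar), the median of all genes (dashed bar) and the size of 0.32 that was counted (dotted lines). Genes at 1.5-fold are labelled, and most points lie between the dotted lines.

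The BSA array, the carrier control, was low for these genes. Against untreated cells 39 of 48 were below 0, where 49.4% of all genes were, and the median was -0.13 (1.09-fold) beside 0.00. Lower at 0.32 were 3 genes (6.25%, against 2.77% of all genes): ATAD2, a bromodomain ATPase, at -0.54, ORC1 at -0.42 and UHRF1 at -0.35. E2F1 was the 1 gene higher at that size, at 0.35 (2.08% against 3.05%), and RFC5 (0.15) and the cyclin CCNE1 (0.14) followed. For RFC5 and CCNE1 the probe sets disagreed, at -0.027, -0.27 and 0.76 for RFC5 and -0.089 and 0.36 for CCNE1. Of the 11 licensing genes 10 were below 0, MCM5 and MCM7 included, at -0.011 and -0.13, and ORC6 was above at 0.017.

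ORC1, the largest subunit of the origin recognition complex, was -0.26 with BSA, -0.19 with ethanol, -0.12 with E2-BSA plus ICI, -0.10 with G15, 0.0065 with E2-BSA plus G15, 0.00 with estradiol, 0.16 untreated and 0.20 with E2-BSA. The pattern of the group, with untreated and E2-BSA on top, is seen in this gene on 1 probe set. ATAD2 was less uniform. Of its 4 probe sets 1 stood at -1.02 with BSA, -0.79 with G15 and -0.79 with E2-BSA plus G15, which is a difference of -1.10 between BSA and untreated. The other 3 gave -0.47 to -0.27. The median of the 4 probe sets gave ATAD2 a difference of -0.35.

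E2F1 went against the group. It was 0.24 with BSA, 0.18 with G15, 0.11 with E2-BSA plus G15, 0.08 with E2-BSA plus ICI, 0.00 with estradiol, -0.11 untreated, -0.13 with E2-BSA and -0.17 with ethanol. Untreated and E2-BSA, high for most of the other genes, were here among the 3 lowest arrays, and both probe sets of E2F1 were higher with BSA than untreated, by 0.43 and 0.27. The HER2 amplicon markers were also higher on the BSA array, 3 of 3 with a median of 0.26, and their part in these results was not tested.

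E2-BSA was compared with BSA to show the coupled hormone and with untreated cells as a check on the carrier. Against BSA 41 of 48 genes were above 0 and 7 below, where 48.6% of all genes were below, and the median was 0.15 (1.11-fold) beside 0.00. Higher at 0.32 were ORC1 (0.46), the initiation factor MCM10 (0.41) and ATAD2 (0.38), which is 6.25% of the genes against 4.48% of all. ORC1 rests on 1 probe set, MCM10 was 0.17 on the probe sets not ending in s, x or a, and ATAD2 was 0.19 with the median of its probe sets, both under 0.32. E2F1 was lower at -0.37 (2.08% against 6.11%), as were FAM111B (-0.27) and CCNE1 (-0.23) at smaller sizes. The CCNE1 probe sets disagreed, at 0.16 and -0.62. All synthesis, nucleotide supply and chromatin genes were above 0.

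Against untreated cells no such lean was seen with E2-BSA. The median was 0.0053 beside 0.0091 over all genes, 23 of 48 genes were below 0 against 45.5%, and none reached 0.32 where 1.76% of all genes were higher and 4.26% lower. RFC5, of the clamp loader, was highest at 0.24, followed by MCM10 (0.15) and the chromatin remodeller HELLS (0.13). FAM111B (-0.22), the repair gene BRCA1 (-0.20) and ATAD2 (-0.16) were lowest. In 38 of the 48 genes, or 79.2%, BSA lay below both the untreated and the E2-BSA array, against 34.7% of all genes. The comparisons with BSA and with untreated share the E2-BSA array and differ only in the array subtracted.

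Free and coupled estradiol, both labelled 1e-06 M and 3 h, differ by the albumin that is attached. Whether that figure counts the conjugate or its estradiol is not given in the labels, so an equal dose is not known. In estradiol minus E2-BSA 42 of 48 genes were below 0, beside 52.6% of all genes, with a median of -0.087. Values ran from -0.34 for RFC5 to 0.13 for E2F1, CCNE2 stood at -0.34 and FAM111B at 0.0023. With 1 array of each form no interval can be given, and the estradiol culture may also hold the ethanol vehicle, which this pair does not match.

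G15 alone was set against untreated cells. The genes leaned lower, with 38 of 48 below 0 against 45.1% of all genes and a median of -0.063 beside 0.0099, or -0.096 with the arrays scaled to a common interquartile range. On the same arrays 4 of 4 endothelial markers (median 0.17) and 3 of 4 immune markers (0.045) were above 0 and 4 of 5 stromal markers below (-0.027), and their part in the result was not tested. ATAD2 (-0.44), UHRF1 (-0.40) and CCNE2 (-0.34) were lower at 0.32 (6.25% against 2.46%), and FAM111B was higher, at 0.40 (2.08% against 3.7%), with E2F1 next at 0.29 and GINS4 at 0.16. ATAD2 was -0.28 with the median of its probe sets and CCNE2 -0.18 on the probe set not ending in s, x or a, so both lie under that size there. With BSA in place of the untreated array the median was 0.048 beside 0.012, with 12 of 48 genes below 0 against 44.5% of all genes, and FAM111B stood at 0.35.

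The largest value in the group belongs to FAM111B under the antagonists. FAM111B encodes a serine protease of the FAM111 family whose RNA peaks in S phase. It was 0.93 with E2-BSA plus ICI, 0.93 with E2-BSA plus G15, 0.42 with G15, 0.074 with BSA, 0.024 untreated, -0.20 with E2-BSA, -0.20 with estradiol and -0.36 with ethanol. The 3 arrays with an antagonist are thus the 3 highest. How many of all genes have these 3 arrays on top was not counted. Its difference was 1.13 (2.19-fold) for ICI added to E2-BSA, 1.12 (2.18-fold) for G15 added to E2-BSA, and 0.50 for E2-BSA plus G15 minus G15.

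Both FAM111B probe sets put those arrays on top, at different sizes. With ICI added to E2-BSA 1 probe set was higher by 1.5 and the other by 0.77, and with G15 added by 1.47 and 0.78. For G15 against untreated both gave 0.40, and for E2-BSA plus G15 minus G15 they gave 0.23 and 0.78. Against untreated cells the combinations gave 0.91 (ICI) and 0.90 (G15), and against BSA 0.86 and 0.85. FAM111A, its paralog, which counters obstacles at the replication fork, had no such pattern: its values ran from -0.16 with ethanol to 0.10 with BSA, with 0.08 for the ICI and -0.042 for the G15 combination.

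CCNE2, a cyclin E that activates CDK2, was low on a different set of arrays. It was -0.49 with E2-BSA plus ICI, -0.34 with G15, -0.23 with estradiol, -0.11 with BSA, 0.00 untreated, 0.054 with ethanol, 0.11 with E2-BSA and 0.12 with E2-BSA plus G15. It was low with ICI and with G15 alone, and close together with E2-BSA and with E2-BSA plus G15. On the probe set not ending in s, x or a, ethanol was highest at 0.11, and the last 2 arrays both stood at 0.034. That probe set was lower with BSA (-0.22) than with G15 (-0.18). ICI added to E2-BSA gave -0.59 (1.51-fold), with -0.38 and -0.81 for its probe sets. G15 added to E2-BSA gave 0.0095, and E2-BSA plus G15 minus G15 gave 0.46. The other cyclin E gene, CCNE1, ran only from -0.10 to 0.18.

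**Figure D4:**
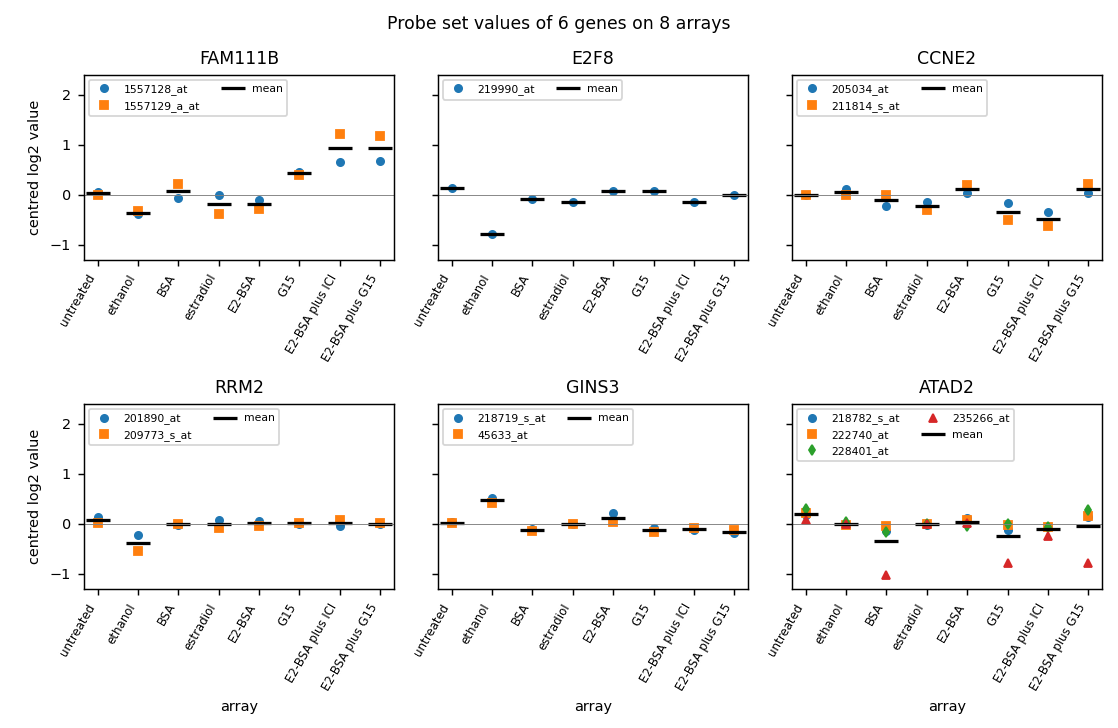
Centred log2 value (vertical axis) of every probe set (coloured symbols) and their mean (black bar) for 6 genes on the 8 arrays (horizontal axis, 1 array per condition). FAM111B is highest on the 3 arrays with an antagonist, E2F8, RRM2 and GINS3 depart on the ethanol array, and 1 of 4 ATAD2 probe sets is low on the BSA and both G15 arrays.

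Most of the other genes were lower when ICI was added to E2-BSA. In all 39 of 48 were below 0 and 9 above, where 46.8% of all genes were below 0, and the median was -0.12 (1.09-fold) beside 0.0078. After CCNE2 the lower genes at 0.32 were MCM10 (-0.48), UHRF1 (-0.36) and TYMS (-0.36), together 4 genes or 8.33% against 5.34% of all genes. FAM111B was the 1 higher gene (2.08% against 7.42%), with E2F1 next at 0.21 and MCM5 at 0.18. All 3 probe sets of MCM10 were lower, from -0.59 to -0.30, as were all 3 of TYMS, from -0.61 to -0.15.

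By role, all 6 chromatin genes were below 0 with ICI, with a median of -0.20, as were 7 of 8 synthesis genes (-0.19), 9 of 11 licensing genes (-0.12) and 3 of 4 nucleotide supply genes (-0.22). With the untreated array in place of E2-BSA the median was -0.12. With BSA in its place the median was -0.009 beside 0.0073 and 25 of 48 genes were below 0 against 46.1% of all genes, a share near the background. Markers of other cell types moved with it: 3 of 4 immune markers were higher with ICI added, with a median of 0.25, led by CD3E and LYZ, as were 4 of 5 stromal markers (0.086) and 3 of 4 endothelial markers (0.13). Of the epithelial markers 5 of 6 were below 0 (median -0.059), and of the HER2 amplicon markers 1 of 3 (median 0.0047). Whether the markers of other cell types are at 0 in the cells cannot be read from centred values. The part of any of these markers in the result was not tested.

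G15 added to E2-BSA gave a smaller lean, against the same E2-BSA array, on which 16 of the genes had their highest value. The median was -0.065 beside -0.0074 over all genes, with 37 of 48 below 0 against 51.7%. PRIM1, the primase, was the 1 gene lower at 0.32, at -0.35 (2.08% against 3.54%), followed by MCM10 (-0.28) and GINS3 (-0.28). FAM111B was again the 1 higher gene (2.08% against 4.57%), before E2F1 (0.24) and PCNA, the sliding clamp (0.15). All 5 helicase activation genes were below 0. With BSA subtracted instead, the median was 0.055 beside -0.0045, with 14 genes below 0 against 51.2%.

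E2-BSA added to G15 was the remaining contrast with an antagonist on both arrays. Its median was 0.0068 beside -0.017, with 23 of 48 genes below 0 against 54.9%. FAM111B and CCNE2 reached 0.32 (4.17% against 2.12% of all genes), HELLS was next at 0.31, and 0 genes were that much lower where 3.85% of all genes were. On the probe sets not ending in s, x or a FAM111B gave 0.23 and CCNE2 0.21, both under 0.32. The 5 HELLS probe sets were all above 0, from 0.081 to 0.54. PRIM1 (-0.20), GINS1 (-0.16) and GINS2 (-0.15) were lowest. Set side by side, ICI and G15 on E2-BSA differed in CCNE2 by -0.60 and in FAM111B by 0.0056, with 31 of 48 genes below 0 against 43.5% of all genes and a median of -0.058 beside 0.017.

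The ranges of further genes, some of them named above, follow by role. Among the licensing genes MCM2 ranged over 0.27 between its highest and lowest array, MCM3 over 0.27, MCM4 over 0.18, MCM5 over 0.29, MCM6 over 0.24, CDC6 over 0.34 and CDT1 over 0.23. Helicase activator CDC45 ranged over 0.16 and GINS4 over 0.19. Among the synthesis genes the clamp loader subunits RFC3 and RFC4 ranged over 0.26 and 0.20, and the flap nuclease FEN1 over 0.29. RRM1, the large subunit of ribonucleotide reductase, ranged over 0.28 and the uracil glycosylase UNG over 0.18.

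In the remaining roles, further genes had similar ranges. E2F2 ranged over 0.18, CHAF1A and CHAF1B of the chromatin assembly factor over 0.20 and 0.28, and SLBP, which binds histone RNA, over 0.34. The checkpoint adaptor CLSPN ranged over 0.17 and DSCC1, of an alternative clamp loader, over 0.22. Of the repair genes, the helicase BLM ranged over 0.26, the exonuclease EXO1 over 0.26, the mismatch repair gene MSH6 over 0.21 and BRCA1 over 0.21. No gene named in these sentences differed by 0.32 in any of the 10 comparisons.

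Probe sets of a gene often disagreed. Of the 48 genes 18 had 1 probe set and 30 had several. Among those 30, the probe sets had the same sign in 17 genes for BSA minus untreated, 19 for E2-BSA minus BSA, 15 for ICI added to E2-BSA and 14 for ethanol minus untreated. The median distance between a gene's highest and lowest probe set in these was 0.24, 0.37, 0.35 and 0.20, in the same order.

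Genes low on 1 array were often low on another. Between BSA minus untreated and ICI added to E2-BSA, which share no array, Pearson's r over the 48 genes was 0.49 and Spearman's rho 0.65, beside 0.23 and 0.24 over all genes, and 36 of the 48 (75%) were below 0 in both, against 27.9% of all genes. Between G15 minus untreated and ICI added to E2-BSA the values were 0.75 and 0.65, beside 0.31 and 0.31, and r was 0.69 without FAM111B. For ethanol minus untreated with ICI added to E2-BSA r was -0.12 and rho -0.029, beside -0.21 and -0.26 over all genes. In this pair too 32 of the 48 (66.7%) were below 0 in both, against 21.8% of all genes. Each of the BSA, ethanol and ICI differences had 39 of 48 genes below 0. A large share below 0 in both follows in part from these counts. These correlations run across genes, which share probes' behaviour, and are descriptions.

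The differences were set side by side for genes with and without the E2F-type letters. For ICI added to E2-BSA the 24 genes with the letters had a median of -0.18 with 22 below 0, and the 16 without had -0.11 with 12. For BSA minus untreated the medians were -0.15 and -0.12, and for ethanol minus untreated -0.065 and -0.13. The difference between the 2 sets was not tested.

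Other genes of the pathway were counted in lists that hold none of the 48. Of 46 other replication genes 35 were below 0 for BSA minus untreated (49.4% of all genes), with a median of -0.089. For E2-BSA minus BSA 10 were below 0 (48.6% of all genes), with a median of 0.095, and for ICI added to E2-BSA 29 (46.8%), with a median of -0.089. At 0.32 the counts were 4 lower and 1 higher for BSA (2.77% and 3.05% of all genes), 0 lower and 1 higher for E2-BSA (6.11% and 4.48%), and 5 lower and 1 higher for ICI (5.34% and 7.42%). These are few genes, and the single gene higher with E2-BSA is a smaller share than that of all genes. The histone chaperone gene NASP resembled FAM111B in its order, at 0.70 with E2-BSA plus G15, 0.59 with E2-BSA plus ICI, 0.35 with G15 and 0.25 with BSA, against -0.25 to 0.085 on the other 4 arrays. The recombination gene RAD54L differed by -0.60 with ethanol.

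The 33 regulators of G1 include genes that drive S phase and genes that restrain it. Of these 28 were below 0 for BSA minus untreated (median -0.15), 6 for E2-BSA minus BSA (0.16) and 24 for ICI added to E2-BSA (-0.18), where 49.4%, 48.6% and 46.8% of all genes were. On the ethanol array CDKN1A, which encodes the CDK inhibitor p21, differed from untreated by 1.32, CDKN2B by 0.57, E2F3 by 0.78, the repressor E2F6 by 0.84 and the S-phase cyclin CCNA2 by -0.70. Estradiol minus untreated gave for CDKN1A -0.65. In that comparison 27 of the 33 regulators were below 0, against 49.4% of all genes, with a median of -0.047 beside 0.00.

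Gene families outside the cell cycle, chosen after values were seen, were measured for scale. For E2-BSA minus BSA the median was -0.014 over 58 ribosomal protein genes, 0.05 over 34 proteasome genes and 0.10 over 53 translation initiation factor genes, with 36, 9 and 9 of them below 0. The lean of E2-BSA over BSA was thus also seen in initiation factors and proteasome genes, at smaller medians than the 0.15 of the G1/S genes. For ICI added to E2-BSA the medians were 0.0032, -0.071 and -0.08, beside -0.12.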

How the data were processed

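RNA from 8 SKBR3 cultures was measured on Affymetrix arrays, 1 per condition. The deposited values were read as log2, from -2.27 to 7.85, and are centred for each probe set, with a median of 0 on every array and at most 4 of 8 values of a probe set above 0. No source used here gives the summarization, normalization or software. Of 54675 probe sets 41091 carry 1 gene symbol, 1801 several and 11783 none. Symbols were updated through gene IDs for 41037. A gene is the mean of its probe sets with 1 symbol, and no filter on low values was possible. Differences were computed with Python 3.11.15, pandas 2.3.3 and numpy 2.4.6, and the scripts were tested on simulated data. With 1 array per condition, no test was made. Differences of 0.32 in log2, 1.5-fold and 2-fold were counted. Genes named are those at 1.5-fold in any of 10 comparisons, the 3 highest and 3 lowest in each, and the rest by role. The genes and lists were chosen with earlier results of these data known.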

Additional observations from a re-analysis of the deposited data

How the results depend on the processing

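The alternatives were scaling to a common interquartile range, other ways to join probe sets, a shorter gene list, another comparator array and leaving out FAM111B, the last chosen after seeing the data. Of 66 alternative medians, 62 moved by less than 0.057, the SD of the median over the untreated, ethanol and BSA arrays, but among them scaling to a common interquartile range took estradiol minus untreated from -0.087 to -0.14 and G15 minus untreated from -0.063 to -0.096. The other 4 were those with BSA as comparator, at 0.023 for estradiol and 0.048 for G15, both of opposite sign to the value against untreated, -0.0090 for E2-BSA plus ICI, and 0.055 for E2-BSA plus G15, of opposite sign to the value against E2-BSA. Sign changes within that spread took the median as low as -0.014 for estradiol minus ethanol, -0.011 for E2-BSA minus untreated and -0.0034 for E2-BSA plus G15 minus G15. At 1.5-fold and at 2-fold the counts were 1 and 0 genes for ethanol minus untreated (3.70% and 0.885% of all genes), 1 and 0 for estradiol minus ethanol (3.40% and 0.875%), 2 and 1 for ICI added to E2-BSA (1.60% and 0.0708%), and 1 and 1 for G15 added to E2-BSA (0.794% and 0.0455%). They were 0 and 0 for BSA minus untreated, E2-BSA minus BSA, G15 minus untreated and E2-BSA plus G15 minus G15, where 0.491% to 1.0% of all genes reached 1.5-fold. With only TTTCGCGC and TTTGGCGC the letters were found in 35% of the 40 genes, against 1.87% of all genes with a window. Over 33 single-gene results, 107 of 132 alternatives moved by less than 0.17, 25 moved more and 0 changed sign. With 1 array per condition no array could be left out, and no paired analysis was possible because no condition has replicates. The variation between cultures was not measured, so none of these differences can be set against it.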
